A study of Mus musculus with 13 samples.

Results

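The expression of 10 macrophage and foam cell markers was examined in the aortas of hypercholesterolemic mice with AngII-induced abdominal aortic aneurysm. The markers were taken by gene name from the deposited gene count table, and they are 10 of the 54532 genes listed. They comprise Cd68, Lgals3, Trem2, Gpnmb, Lyz2, Mrc1, Adgre1, Cd163, C1qa and Lyve1, and all 10 had enough counts to be tested. RNA sequencing had been done on 13 whole aortas, 1 library per aorta, to ask what delivery of FAM3A changes in the aneurysmal wall. All mice were ApoE−/− and received AngII from a subcutaneous pump at 1000 ng/kg/min for 28 days from 10 weeks of age. The 6 Ad-sham mice were given an adenovirus without an insert, and the 7 Ad-FAM3A mice were given an adenovirus carrying mouse Fam3a under the ubiquitous EF1A promoter, each in 5 tail vein injections. The vector therefore reached the circulation and was not restricted to macrophages or to the aorta, every mouse carried the ApoE deletion and AngII, and the sex of these mice was not stated. An aorta without AngII or without virus was not analysed here, so the values describe markers within the diseased wall.

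Macrophages enter the hypercholesterolemic artery as monocytes or live in its adventitia, where they clear debris and modified lipoproteins. Those that load lipid become foam cells, and these switch on lysosomal and lipid-handling genes such as Trem2, Gpnmb, Lgals3 and Cd68. Resident adventitial macrophages are instead known for Lyve1, Cd163 and Mrc1, whereas Adgre1, Lyz2 and C1qa mark macrophages more widely.

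The sequences before the transcription start are shown for 4 of the markers, because the results below turn on how closely the foam cell markers moved together and how far Mrc1 stood from them. They are the 250 bases upstream of the RefSeq start on GRCm38.p6, read 5′ to 3′ on the strand of the gene. Capitals mark the letters TGANTCA of the AP-1 motif and the letters GAGGAA of the PU.1 core or its reverse complement TTCCTC. PU.1 is a transcription factor of the myeloid lineage, and AP-1 is a widely expressed one.
Cd68, chr11:69666171-69666420, minus strand: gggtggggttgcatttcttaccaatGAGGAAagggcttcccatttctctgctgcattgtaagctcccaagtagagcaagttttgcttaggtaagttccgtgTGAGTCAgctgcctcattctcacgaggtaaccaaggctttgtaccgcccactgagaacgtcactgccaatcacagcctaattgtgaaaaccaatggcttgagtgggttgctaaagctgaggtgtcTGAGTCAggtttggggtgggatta
Trem2, chr17:48346151-48346400, plus strand: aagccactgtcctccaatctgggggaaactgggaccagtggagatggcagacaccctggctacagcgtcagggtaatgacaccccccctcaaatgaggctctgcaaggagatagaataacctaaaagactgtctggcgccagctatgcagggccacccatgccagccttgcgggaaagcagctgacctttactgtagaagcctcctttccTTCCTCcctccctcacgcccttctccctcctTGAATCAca
Gpnmb, chr6:49036268-49036517, plus strand: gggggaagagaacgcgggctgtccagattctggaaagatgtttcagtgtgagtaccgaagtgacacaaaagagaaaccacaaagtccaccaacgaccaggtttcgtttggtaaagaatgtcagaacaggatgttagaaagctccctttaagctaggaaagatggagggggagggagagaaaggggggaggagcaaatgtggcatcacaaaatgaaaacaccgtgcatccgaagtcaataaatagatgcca
Mrc1, chr2:14229164-14229413, plus strand: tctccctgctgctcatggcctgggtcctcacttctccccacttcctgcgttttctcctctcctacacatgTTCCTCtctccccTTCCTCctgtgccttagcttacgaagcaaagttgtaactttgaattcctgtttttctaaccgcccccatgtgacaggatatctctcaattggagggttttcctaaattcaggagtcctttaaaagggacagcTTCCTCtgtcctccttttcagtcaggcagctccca
RefSeq windows were matched for 7 of the 10 markers, and none was used for Adgre1, C1qa and Lyve1. The AP-1 letters occurred on either strand in 2 of these 7 windows, those of Cd68 and Trem2, and in 6.75% of all 32841 windows of the same length. The PU.1 letters occurred in 3 of the 7, those of Cd68, Trem2 and Mrc1, and in 23.3% of all windows. No overlap was found between matches of both motifs in these windows, and the letters CACGTG of the E-box, found in 6.02% of all windows, occurred in 0 of the 7. The windows of Gpnmb, Lyz2, Lgals3 and Cd163 held none of the 3 sets of letters. A match of letters describes the window and is not evidence of binding.

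The markers lie on GRCm38 as follows. Cd68 (ENSMUSG00000018774) is on chromosome 11 from 69664213 to 69666153, Lgals3 (ENSMUSG00000050335) on chromosome 14 from 47367751 to 47386160, Trem2 (ENSMUSG00000023992) on chromosome 17 from 48346401 to 48354147, Gpnmb (ENSMUSG00000029816) on chromosome 6 from 49036546 to 49070929 and Lyz2 (ENSMUSG00000069516) on chromosome 10 from 117277331 to 117282321. Mrc1 (ENSMUSG00000026712) is on chromosome 2 from 14229392 to 14332057, Adgre1 (ENSMUSG00000004730) on chromosome 17 from 57358691 to 57483527, Cd163 (ENSMUSG00000008845) on chromosome 6 from 124304656 to 124330527, C1qa (ENSMUSG00000036887) on chromosome 4 from 136895917 to 136898803 and Lyve1 (ENSMUSG00000030787) on chromosome 7 from 110850607 to 110863239. All 10 are protein-coding genes whose start and end were the same in GENCODE vM21, and 0 of the 10 shared an exonic base with another gene there on either strand.

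Lyz2 has a near-identical neighbour, Lyz1 (ENSMUSG00000069515, chromosome 10, 117287797 to 117292868), and the first 150 coding bases of both are shown to compare them, with the bases that differ in capitals.
Lyz2: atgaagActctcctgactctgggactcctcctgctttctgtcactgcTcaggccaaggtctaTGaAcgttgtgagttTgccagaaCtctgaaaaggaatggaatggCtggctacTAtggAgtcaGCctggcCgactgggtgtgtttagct
Lyz1: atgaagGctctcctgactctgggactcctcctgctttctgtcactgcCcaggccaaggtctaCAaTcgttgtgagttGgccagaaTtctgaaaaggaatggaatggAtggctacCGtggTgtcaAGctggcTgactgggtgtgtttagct
These stretches differ at 14 bases. Over the whole coding sequence of 447 bases the genes differed at 22 bases and were 95.1% identical, and the longest run shared by their transcripts was 118 bases. No window of the 150-base read length in the Lyz2 transcript, 0 of 1167, was found unchanged in the Lyz1 transcript. How reads matching both genes were handled was not given, so the split between the pair remains uncertain. Lyz1 had 8.15 to 59.8 CPM (counts scaled to the normalized library size) and Lyz2 had 356 to 2837 CPM across the 13 aortas. Lyz1 was highest in Ad-FAM3A6, at 59.8 CPM, and Ad-FAM3A7, at 37.6 CPM.

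Total counts ranged from 14481179 to 19797407 per aorta, so that a count of 0 allows up to 0.140 to 0.221 CPM (3 counts, counting error only), and the lowest count of any marker was 63, for Trem2. Fam3a itself measured 24.4 CPM (SD 4.27) over the 6 Ad-sham aortas and 24.0 CPM (SD 4.64) over the 7 aortas labelled Ad-FAM3A, with a log2 difference of -0.03 and an exact permutation p of 0.835. The delivered gene was thus not detectably higher in the libraries labelled Ad-FAM3A, and every direction given here refers to the labels. All 5 smooth muscle genes checked were detected in every aorta, with 22382 to 162650 counts of Acta2. Genes of other tissues varied widely between aortas, with summed levels from 0 to 579 CPM for 4 kidney genes, 0.577 to 994 CPM for 4 sympathetic neuron genes, 6.28 to 245 CPM for 4 cardiac genes and 0.463 to 355 CPM for 4 liver genes, and their part in the marker values was not tested. The aortas Ad-FAM3A6 and Ad-FAM3A7 stood apart by immunoglobulin genes, which took 3.41% and 0.956% of their counts and at most 0.0431% elsewhere. A further measure singled out Ad-FAM3A2. There the log2 expression of protein-coding genes changed by -0.34 per doubling of gene length relative to the mean aorta, against -0.16 to 0.16 in the other 12. In bulk RNA, fewer cells of a type and less RNA per cell cannot be told apart.

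Per gene length, Lyz2 was by far the most abundant of the markers. Expressed as TPM, which correct for gene length as well as library size, Lyz2 had 2029 ± 1290 TPM (SD over 13 aortas), the 35th highest mean of all 54532 genes. C1qa followed with 228 ± 126 TPM, then Lgals3 with 137 ± 112 TPM, Gpnmb with 102 ± 81.4 TPM and Cd68 with 101 ± 65.6 TPM. Lower means were found for Lyve1 at 53.6 TPM (20.1 to 103 over the aortas), Mrc1 at 42.0 TPM (15.3 to 70.9), Adgre1 at 36.9 TPM (15.8 to 58.3), Cd163 at 24.1 TPM (8.77 to 38.4) and Trem2 at 11.6 TPM (2.24 to 41.5). Lyz2 ranked first in each of the 13 aortas. The order was firm between Lyz2 and C1qa, C1qa and Lgals3, Lgals3 and Gpnmb, Adgre1 and Cd163, and Cd163 and Trem2 (exact sign-flip permutation tests on log2 TPM ratios, adjusted p = 0.0022 to 0.0097 over 9 neighbouring pairs). It was not firm between Gpnmb and Cd68, where 5 of 13 aortas had more Gpnmb, between Cd68 and Lyve1, between Lyve1 and Mrc1, or between Mrc1 and Adgre1 (adjusted p = 0.098 to 0.249).

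The comparison of Ad-FAM3A with Ad-sham asked whether macrophage or foam cell transcripts differed between the virus groups. A call required an adjusted p below 0.05 together with a log2 change larger than 1 either way. In edgeR's quasi-likelihood test this was met by 0 of the 15811 genes tested, 0% of all genes, and by 0 of the 10 markers. At an unadjusted p under 0.05, 934 genes (5.91%) and 0 of the 10 markers passed, of which 471 genes (2.98%) were higher and 463 (2.93%) lower in Ad-FAM3A. DESeq2 called 10 genes, none of them a marker. The groups overlapped for all 10 markers, as they did for all but 15 genes (0.0949%). Of the markers, 6 had a positive and 4 a negative log2 fold change, with a median of 0.49 beside 0.00 over all genes tested. For the markers edgeR gave adjusted p between 0.810 and 0.975.

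**Figure D1:**
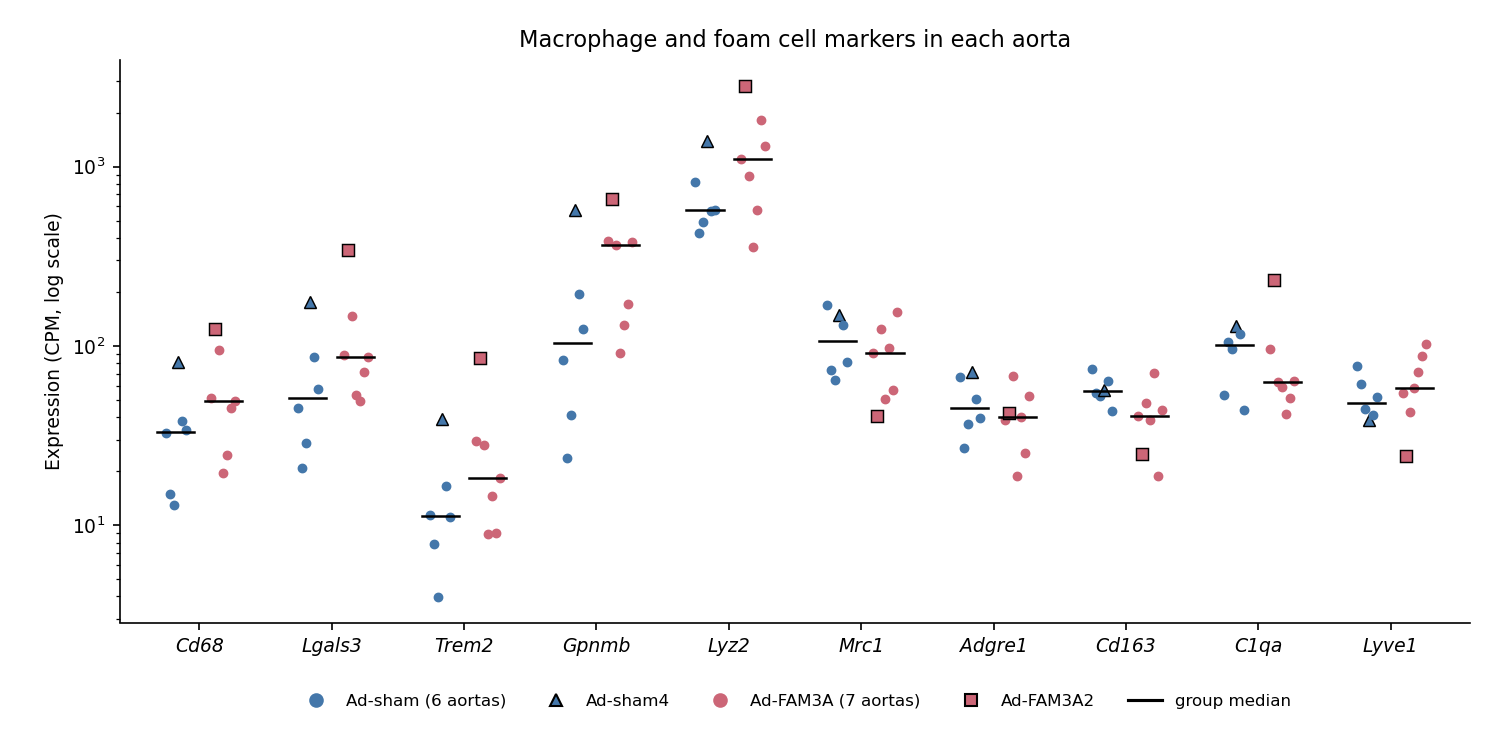
Expression of the 10 markers in each aorta, in CPM on a log scale, with 6 Ad-sham aortas in blue, 7 Ad-FAM3A aortas in red and black lines at the group medians. Both groups overlap for every marker, and the aorta Ad-FAM3A2 (square) is the highest of all 13 for 6 markers and the lowest for Mrc1 and Lyve1.

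The foam cell markers varied most from aorta to aorta. Cd68, a glycoprotein of macrophage lysosomes, lay between 12.9 and 81.5 CPM in the Ad-sham aortas, with a median of 33.3, and between 19.5 and 124 CPM in the Ad-FAM3A aortas, with a median of 49.0. Its highest values came from Ad-FAM3A2, Ad-FAM3A3 and Ad-sham4, and 5 of 7 Ad-FAM3A aortas were above the Ad-sham median. This gave a log2 fold change of 0.71 (standard error 0.48) and a two-sided p of 0.206 in the exact permutation test.

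Lgals3, which encodes the sugar-binding lectin galectin-3, ranged from 20.8 to 175 CPM with a median of 51.2 in Ad-sham, and from 49.4 to 342 CPM with a median of 87.3 in Ad-FAM3A. Only Ad-FAM3A2 exceeded the highest Ad-sham aorta, Ad-sham4, and the next highest Ad-FAM3A value was 147 CPM. On the log2 scale Lgals3 differed by 0.80 (standard error 0.54, exact permutation p = 0.174).

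Trem2, a lipid-sensing receptor that signals through the adaptor Tyrobp, was the scarcest marker. In Ad-sham it ranged from 3.98 to 38.9 CPM with a median of 11.2, and in Ad-FAM3A from 8.91 to 85.6 CPM with a median of 18.4. Again Ad-sham4 and Ad-FAM3A2 were the highest of their groups, with the next aortas at 16.5 and 29.6 CPM. Trem2 differed by 0.89 on the log2 scale (standard error 0.59, exact permutation p = 0.225).

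Gpnmb, a transmembrane glycoprotein of lipid-laden macrophages, had the widest range of the 10, with 27.8-fold between the lowest and the highest aorta. It ranged from 23.8 to 574 CPM with a median of 104 in Ad-sham and from 91.2 to 660 CPM with a median of 368 in Ad-FAM3A. Above the Ad-sham median lay 6 of 7 Ad-FAM3A aortas, but Ad-sham4 lay above all but Ad-FAM3A2. Its difference of 0.85 on the log2 scale had a standard error of 0.66 and an exact permutation p of 0.103, and by limma-voom the difference was 1.32.

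Lyz2, the lysozyme of macrophages and other myeloid cells, ranged from 426 to 1398 CPM with a median of 572 in Ad-sham and from 356 to 2837 CPM with a median of 1112 in Ad-FAM3A. Its 2 highest aortas were Ad-FAM3A2 and Ad-FAM3A6, and the lowest of all was Ad-FAM3A4. Lyz2 differed by 0.83 on the log2 scale (standard error 0.44, exact permutation p = 0.187). Its unadjusted p was 0.0789 in edgeR and 0.0471 by DESeq2, and in edgeR it was 0.0246 without Ad-FAM3A4 and 0.0442 without Ad-FAM3A5, with an adjusted p of at least 0.682 in all 4 fits. In Ad-FAM3A6 the summed expression of the 5 B cell genes was 653 CPM, against 9.92 to 45.1 CPM in Ad-sham, and that of the 7 T cell genes was 430 CPM, against 11.5 to 190 CPM. The part of these lymphoid transcripts in the Lyz2 value was not tested, and without both Ad-FAM3A6 and Ad-FAM3A7 the log2 fold change of Lyz2 was 0.70.

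These 5 fold changes rested on few aortas. Without Ad-sham4 they were 1.13 for Cd68, 1.33 for Lgals3, 1.44 for Trem2, 1.74 for Gpnmb and 1.14 for Lyz2. All 5 then had an unadjusted p under 0.05 by edgeR's quasi-likelihood test, with an adjusted p of 0.636 each. So had 1221 of all genes, beside 934 (5.91%) with all 13 aortas. The 5 markers moved together, with r of 0.71 to 0.95, so they are not 5 separate results. Without Ad-FAM3A2 the fold changes were 0.42, 0.28, 0.29, 0.58 and 0.52 in the same order, and 0 passed an unadjusted p under 0.05, beside 1345 of all genes. Ad-FAM3A2 is also the aorta with the steepest trend against gene length. The gene lengths are 1257 bases for Cd68, 1316 for Lyz2, 1858 for Lgals3, 4946 for Trem2 and 6514 for Gpnmb. Over the 13 aortas the r of these 5 markers with the trend lay between -0.32 for Lyz2 and 0.01 for Gpnmb, and without Ad-FAM3A2 between 0.26 for Lyz2 and 0.56 for Gpnmb. The part of that trend in the values was not tested.

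**Figure D2:**
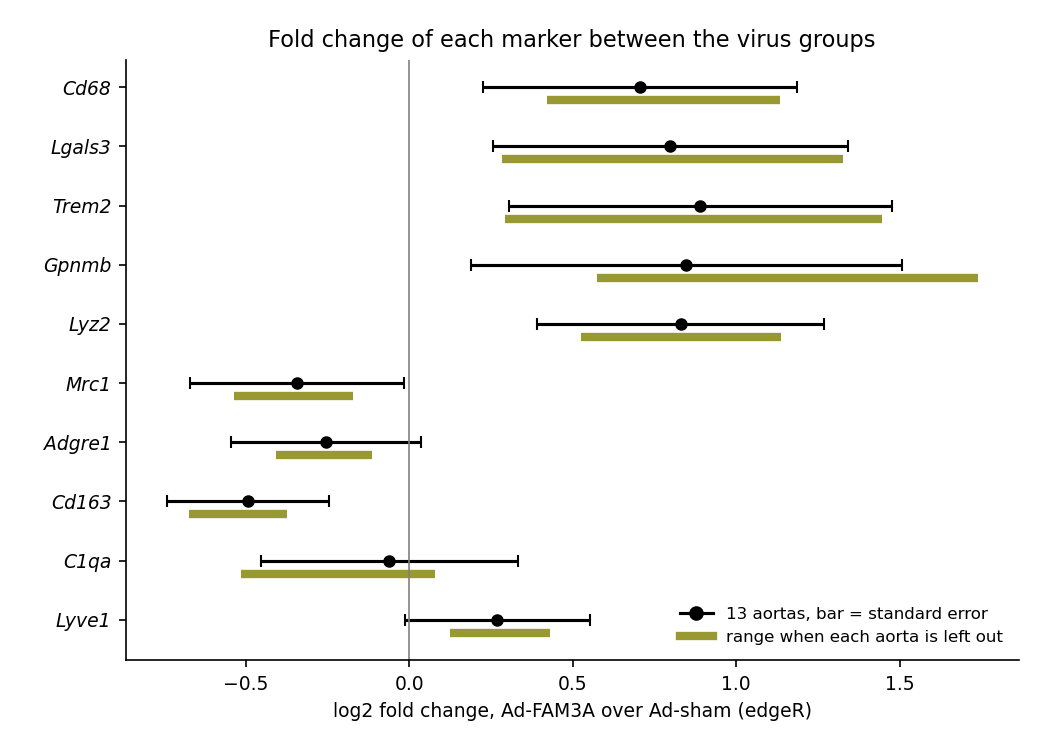
Log2 fold change of each marker in Ad-FAM3A over Ad-sham from edgeR (points, with bars of 1 standard error) and the lowest to highest value when each aorta is left out in turn (olive bars). The 5 markers Cd68, Lgals3, Trem2, Gpnmb and Lyz2 stay above 0 throughout, Mrc1, Adgre1 and Cd163 stay below 0, and C1qa spans 0 (-0.52 to 0.08).

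Of the markers of resident macrophages, Mrc1 and Cd163 had lower and Lyve1 had higher values in Ad-FAM3A, and 0 of these 3 was called in edgeR. Mrc1, the mannose receptor that takes up glycoproteins, ranged from 64.3 to 170 CPM with a median of 106 in Ad-sham and from 40.6 to 154 CPM with a median of 90.8 in Ad-FAM3A. Of the 7 Ad-FAM3A aortas 5 were below the Ad-sham median, and the lowest of all 13 was Ad-FAM3A2, which had the most Cd68. For Mrc1 the log2 difference was -0.34 (standard error 0.33, exact permutation p = 0.299). It was -0.17 without Ad-sham1, -0.20 without Ad-FAM3A2 and -0.54 without Ad-FAM3A7.

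Cd163, the scavenger receptor for haemoglobin bound to haptoglobin, came closest to a difference between the groups. It ranged from 43.6 to 74.1 CPM with a median of 55.8 in Ad-sham, the narrowest spread of the 10 in that group, and from 18.9 to 70.9 CPM with a median of 40.8 in Ad-FAM3A. Of the Ad-FAM3A aortas 6 of 7 lay below the Ad-sham median and 4 lay below all 6 Ad-sham aortas, whereas Ad-FAM3A5 was near the top. Cd163 differed by -0.49 on the log2 scale (standard error 0.25, exact permutation p = 0.0559, unadjusted for 10 markers). Its lowest aorta was Ad-FAM3A6, and without both Ad-FAM3A6 and Ad-FAM3A7 the log2 fold change was -0.37, while without Ad-FAM3A5 it was -0.68 and had an unadjusted p of 0.0074 in edgeR (adjusted p = 0.962). The unadjusted p of Cd163 was also below 0.05 by limma-voom, where it was 0.0355 (adjusted p = 0.925), and in edgeR where every aorta had to have at least 10 counts, where it was 0.0464.

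Adgre1, the adhesion receptor recognised by the classical mouse macrophage antibody, ranged from 26.9 to 71.1 CPM with a median of 45.1 in Ad-sham and from 18.8 to 68.2 CPM with a median of 40.3 in Ad-FAM3A. Its groups covered nearly the same range, and the log2 difference was -0.26 (standard error 0.29, exact permutation p = 0.407). It was -0.12 without Ad-sham4, -0.13 without either Ad-sham1 or Ad-FAM3A4, and -0.41 without Ad-FAM3A3.

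C1qa, the A chain of complement C1q, ranged from 43.8 to 129 CPM with a median of 101 in Ad-sham and from 41.7 to 233 CPM with a median of 63.1 in Ad-FAM3A. A single Ad-FAM3A aorta, Ad-FAM3A2, lay above the Ad-sham median and the other 6 lay below it. The group difference in C1qa was -0.06 on the log2 scale (standard error 0.39, exact permutation p = 0.646), and without Ad-FAM3A2 it was -0.52, whereas it was 0.02 to 0.08 without Ad-sham4, Ad-sham5 or any 1 of the aortas Ad-FAM3A3 to Ad-FAM3A7.

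Lyve1, a hyaluronan receptor of resident macrophages and of lymphatic endothelium, ranged from 38.6 to 77.0 CPM with a median of 48.3 in Ad-sham and from 24.5 to 103 CPM with a median of 57.9 in Ad-FAM3A. The aortas highest for the foam cell markers were the lowest of their groups here, Ad-sham4 at 38.6 CPM and Ad-FAM3A2 at 24.5 CPM. Lyve1 differed by 0.27 on the log2 scale (standard error 0.28, exact permutation p = 0.581), and by -0.07 without both Ad-FAM3A6 and Ad-FAM3A7. Without 1 aorta it was 0.41 (Ad-sham1), 0.43 (Ad-FAM3A2), 0.17 (Ad-FAM3A6) or 0.12 (Ad-FAM3A7). The aortas Ad-FAM3A6 and Ad-FAM3A7 had the most Lyve1, 87.7 and 103 CPM, and Prox1, a transcription factor of lymphatic endothelium, was highest in Ad-FAM3A6. Across the 13 aortas Lyve1 and Prox1 had r = 0.68 and rho = 0.46 (permutation test, p = 0.0112 and 0.114, adjusted p = 0.0681 and 0.353), and r was 0.25 without the 2 aortas farthest from the median of Lyve1, Ad-FAM3A2 and Ad-FAM3A7. Of the 6 lymphatic genes 5 were tested, with a median log2 fold change of -0.10. Prox1 (0.84) and Mmrn1 (0.06) were higher in Ad-FAM3A, and Reln (-0.45), Pdpn (-0.42) and Flt4 (-0.10) were lower. The summed expression of the 6 was 62.4 to 127 CPM in Ad-sham and 18.7 to 156 CPM in Ad-FAM3A, with Ccl21a at 0 counts in at least 1 aorta. The part of lymphatic vessels in the Lyve1 values was not tested.

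The markers fell into sets that moved together across aortas. Among the 85 relations computed on log2 CPM, 45 were between markers, and 12 of these 45 passed an adjusted p under 0.05, 11 of them positive. All 6 pairs of Cd68, Lgals3, Trem2 and Gpnmb passed, with r from 0.88 to 0.95 and rho from 0.90 to 0.97 (permutation test with 100000 resamples over 13 aortas, adjusted p = 0.00034 to 0.00099 for r and 0.00042 to 0.0011 for rho). Each of the 6 also passed without the 2 aortas farthest from the median of the first gene, where r was 0.83 to 0.94. Within the 6 Ad-sham aortas these r were 0.89 to 0.998, and within the 7 Ad-FAM3A aortas 0.83 to 0.93. Within either group 0 of the 6 passed (exact permutation test, smallest adjusted p = 0.0984 within Ad-sham and 0.0506 within Ad-FAM3A). With so few aortas the exact test had little room to pass. In Ad-sham, Lgals3 with Gpnmb at r = 0.998 had p = 0.0014 by that test and an adjusted p of 0.0984. These results therefore do not show that the relations were lost within the groups. By r over all 13 aortas the highest pair was Cd68 with Lgals3 (r = 0.95, rho = 0.96), and by rho it was Lgals3 with Gpnmb (r = 0.94, rho = 0.97), with a permutation p of 1e-05 for all 4 values, the smallest that the resampling can give.

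Lyz2 followed the same 4 markers less closely, with r from 0.71 to 0.82 and rho from 0.71 to 0.85 (permutation test, adjusted p = 0.0076 to 0.042 for r and 0.0072 to 0.063 for rho). None of its 4 relations passed once the 2 farthest aortas were left out, where r was 0.49 for Trem2, 0.57 for Lgals3, 0.73 for Gpnmb and 0.74 for Cd68 (permutation test, adjusted p = 0.072 to 0.374). Mrc1 and Adgre1 formed a second pair (r = 0.78, rho = 0.77, permutation test, p = 0.0015 and 0.0028, adjusted p = 0.0163 and 0.0264). Their r was 0.91 without Ad-sham1 and Ad-FAM3A2, 0.91 within Ad-sham and 0.68 within Ad-FAM3A. Mrc1 and Cd163 had r = 0.68 and rho = 0.71 and missed the threshold (permutation test, p = 0.0079 and 0.0089, adjusted p = 0.0518 and 0.0633), with r = 0.50 without Ad-sham1 and Ad-FAM3A2.

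**Figure D3:**
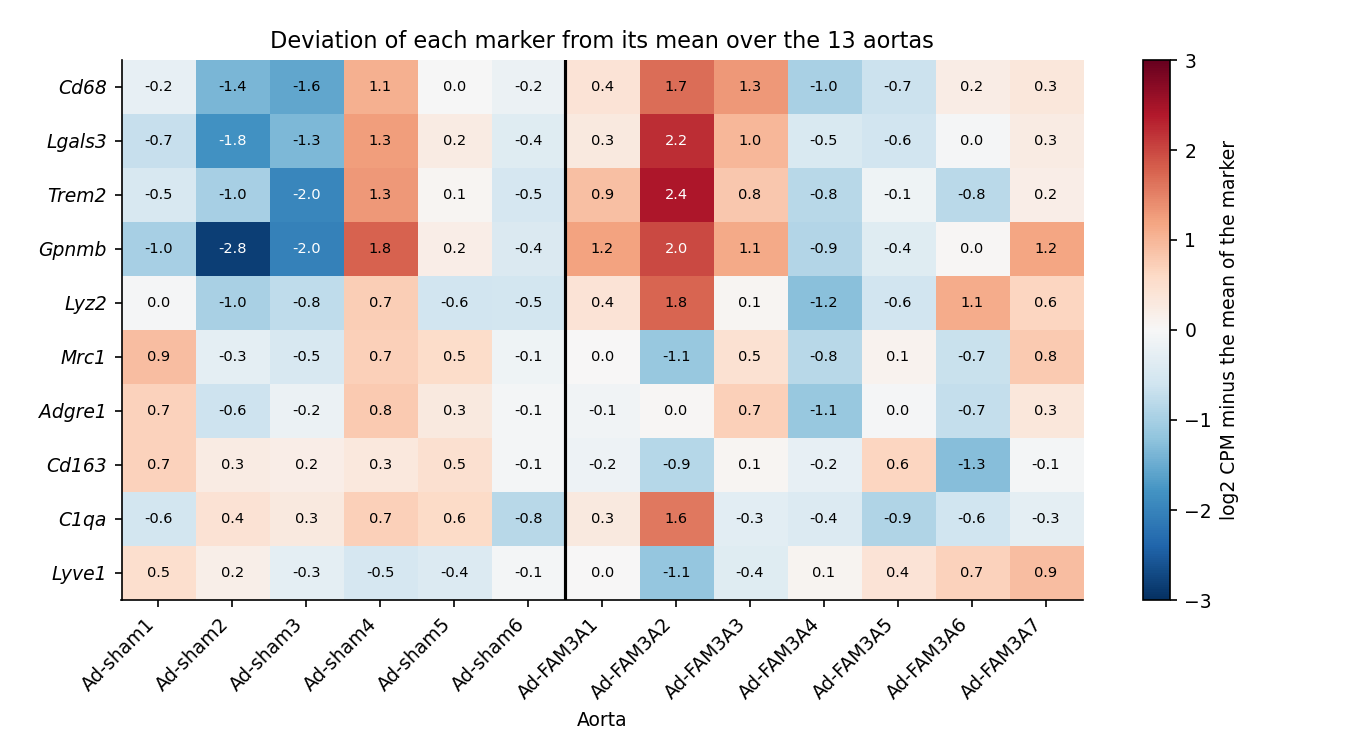
Deviation of each marker from its own mean over the 13 aortas, in log2 CPM, with the 6 Ad-sham aortas left and the 7 Ad-FAM3A aortas right of the black line. In each of the 5 upper rows Ad-FAM3A2 ranks 1 and Ad-sham4 ranks 2 or 3 of the 13 aortas, and these rows share several of their low aortas. Mrc1 and Lyve1 reach their lowest values in Ad-FAM3A2.

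Between the foam cell set and the resident markers 0 pairs passed over the 13 aortas. Across the 13 aortas the r of the 5 markers Cd68, Lgals3, Trem2, Gpnmb and Lyz2 with Mrc1 lay between -0.05 and 0.19, and with Cd163 between -0.59 and -0.21, with none past the threshold (permutation test, smallest adjusted p = 0.170). With Cd163 the r of the 5 were 0.09 to 0.31 within Ad-sham and -0.67 to -0.09 within Ad-FAM3A. The rho were 0.09 to 0.32 with Mrc1 and -0.37 to -0.05 with Cd163 (permutation test, smallest adjusted p = 0.467). Within the 6 Ad-sham aortas the same 5 markers had r of 0.67 to 0.78 with Mrc1, and within the 7 Ad-FAM3A aortas r of -0.26 to 0.15. With Lyve1 the r of the 5 markers were -0.55 to -0.18 over all 13 aortas (permutation test, smallest adjusted p = 0.232, and 0.296 for the rho of -0.51 to -0.09). They were -0.59 to -0.22 within Ad-sham and -0.80 to -0.29 within Ad-FAM3A (exact permutation test, smallest adjusted p within Ad-FAM3A = 0.235). The difference between the groups in these r was not tested. Csf1r, the receptor for the macrophage growth factor CSF1, gave the like picture: its r with the 5 markers was 0.84 to 0.94 within Ad-sham, -0.16 to 0.47 within Ad-FAM3A and 0.19 to 0.51 over all 13, where 0 of 5 passed (permutation test, adjusted p = 0.284 to 0.765 for r and 0.223 to 0.445 for the rho of 0.40 to 0.57). Without the 2 farthest aortas, Ad-FAM3A2 and Ad-FAM3A4, Lyz2 and Csf1r had r = 0.84 (permutation test, adjusted p = 0.0227). Not all general macrophage genes resembled Csf1r here. Over the 13 aortas Cd68 had r = 0.90 with C1qb, 0.82 with C1qc and 0.98 with Ctss, its closest gene. Moving together was thus not particular to the foam cell markers.

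C1qa and Lyve1 were the one inverse pair (r = -0.75, rho = -0.64, permutation test, p = 0.0032 and 0.0209, adjusted p = 0.0247 and 0.119). Without Ad-sham4 and Ad-FAM3A2 the r was -0.48 and no longer passed (permutation test, adjusted p = 0.374). Within Ad-sham it was -0.63 and within Ad-FAM3A -0.80 (exact permutation test, adjusted p = 0.432 and 0.242). With the per-aorta trend against gene length C1qa, at 1040 bases, had r = -0.80 and Lyve1, at 2919 bases, had r = 0.54. Without Ad-FAM3A2 these were -0.61 and 0.13. The part of the trend in the values of this pair was not tested. None of the 40 relations of the markers with Csf1r, Prox1, the smooth muscle gene Acta2 or the adipocyte gene Adipoq passed (permutation test, smallest adjusted p = 0.0681).

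**Figure D4:**
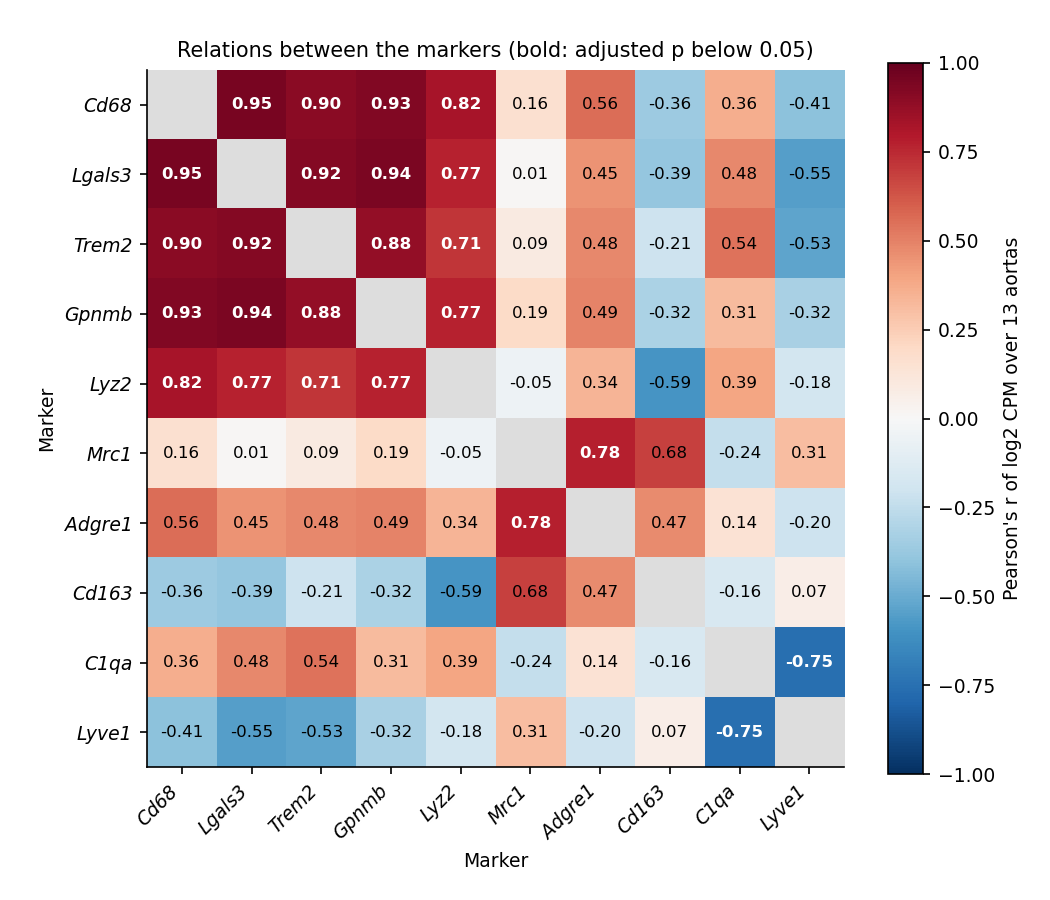
Pearson's r of log2 CPM between each pair of markers over the 13 aortas, with pairs at an adjusted p below 0.05 in bold. Cd68, Lgals3, Trem2 and Gpnmb form a block with r of 0.88 to 0.95, Lyz2 joins it at 0.71 to 0.82, and Mrc1 with Adgre1 (0.78) and C1qa with Lyve1 (-0.75) are the only other bold pairs.

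The genes whose profile was most like each marker over the 13 aortas are given as a description. They come from the 14112 tested protein-coding genes, with the 10 markers left out. The genes of an aorta come from 1 library and share its depth. For Cd68 they were Ctss, a lysosomal protease (r = 0.98), Gpr137b, a lysosomal membrane protein (r = 0.97), and Stra6l (r = 0.97). For Lgals3 they were Slc15a3, a lysosomal peptide transporter (r = 0.96), Gpr137b (r = 0.96) and the chemokine Cxcl16 (r = 0.95). For Trem2 they included the genes of the lysosomal enzymes Ctsl (r = 0.97) and Gla (r = 0.95). Gpnmb was most like Stra6l (r = 0.95), Slc15a3 (r = 0.95) and the integrin gene Itgax (r = 0.94). Thus Gpr137b, Stra6l and Slc15a3 each appeared for a pair of these markers.

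The other markers had different partners. Lyz2 was most like Dctd (r = 0.94), Il18bp (r = 0.93) and B430306N03Rik (r = 0.93). Adgre1 was most like the lectin gene Cd209a (r = 0.92), the Fc receptor gene Fcgr1 (r = 0.90) and Alox5ap, a gene of leukotriene synthesis (r = 0.90). Mrc1 was most like Fap, a protease of activated fibroblasts (r = 0.91), the endocytic adaptor Dab2 (r = 0.90) and the complement receptor C5ar1 (r = 0.90). Cd163 was most like Wnt2 (r = 0.91), F13a1, a coagulation factor chain made by resident macrophages (r = 0.91), and Abca9 (r = 0.90). C1qa was most like Msto1 (r = 0.93), Mthfs (r = 0.92) and Fuca1 (r = 0.92), and Lyve1 was most like Usp24 (r = 0.91), Cdk12 (r = 0.89) and Atxn7 (r = 0.89). For Lyve1 and Usp24 the r was 0.53 within Ad-sham and 0.98 within Ad-FAM3A.

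Each marker was then set against the overall macrophage signal of its aorta, the mean log2 CPM of 17 pan-macrophage genes such as Csf1r, C1qb and Tyrobp. This mean was 5.07 ± 0.60 (SD, n = 6) in Ad-sham and 5.35 ± 0.64 (SD, n = 7) in Ad-FAM3A, and it was highest in Ad-FAM3A2 and second highest in Ad-sham4. Some of these genes are shared with other leukocytes. Laptm5, Cybb and Aif1 were highest in Ad-FAM3A6, the aorta with the most B and T cell transcripts, whereas C1qb, C1qc and Tyrobp were highest in Ad-FAM3A2. The part of other leukocytes in the mean was not tested. Gpnmb stood 1.60 ± 1.05 log2 units above it in Ad-sham and 2.66 ± 0.60 above it in Ad-FAM3A, a difference of 1.05, and each of the 7 Ad-FAM3A values exceeded the Ad-sham median (exact permutation p = 0.0425, unadjusted for the 10 markers compared). That p was 0.053 against Csf1r alone and passed 0.05 in only 4 of the 13 repeats without 1 aorta. Adgre1 was 0.45 ± 0.30 above the mean in Ad-sham and -0.10 ± 0.53 relative to it in Ad-FAM3A, a difference of -0.55 with 6 of 7 Ad-FAM3A values under the median of Ad-sham (exact permutation p = 0.0495, unadjusted), and -0.24 against Csf1r alone, p = 0.478 by the same exact test. The p of Adgre1 passed 0.05 in only 2 of the 13 repeats without 1 aorta, and its lowest value relative to the mean, -0.94, came from Ad-FAM3A6.

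The other 8 markers did not pass the test relative to the pan-macrophage genes. The differences were 0.44 for Cd68, 0.57 for Lgals3, 0.53 for Trem2, 0.40 for Lyz2, -0.66 for Mrc1, -0.47 for C1qa, -0.85 for Cd163 and -0.09 for Lyve1 (two-sided exact permutation tests, p = 0.095 to 0.868). Against Csf1r alone they were 0.76 for Cd68, 0.88 for Lgals3, 0.85 for Trem2, 0.72 for Lyz2, -0.35 for Mrc1, -0.15 for C1qa, -0.54 for Cd163 and 0.23 for Lyve1 (exact permutation p = 0.053 to 0.789). Without both Ad-FAM3A6 and Ad-FAM3A7 the difference was 0.60 for Cd68, 0.82 for Lgals3 and 0.94 for Trem2, with p = 0.0433, 0.0325 and 0.0238 by the exact permutation test, unadjusted. Without Ad-FAM3A2 it was 0.33, 0.38 and 0.31 in the same order, with p = 0.171, 0.190 and 0.426 by that exact test. Trem2 was also at 0.35 without Ad-sham3, and Lgals3 at 0.72 without Ad-sham4 (exact p = 0.0404). Mrc1 was at -0.39 without Ad-FAM3A2 and at -0.82 without Ad-FAM3A5, and Cd163 at -1.11 without Ad-FAM3A5, where the exact p of this pair was 0.0368 and 0.0346. Cd163 was at -0.56 without both Ad-FAM3A6 and Ad-FAM3A7. C1qa was at -0.27 without Ad-sham2, -0.31 without Ad-sham3 and -0.19 without both Ad-FAM3A6 and Ad-FAM3A7.

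**Figure D5:**
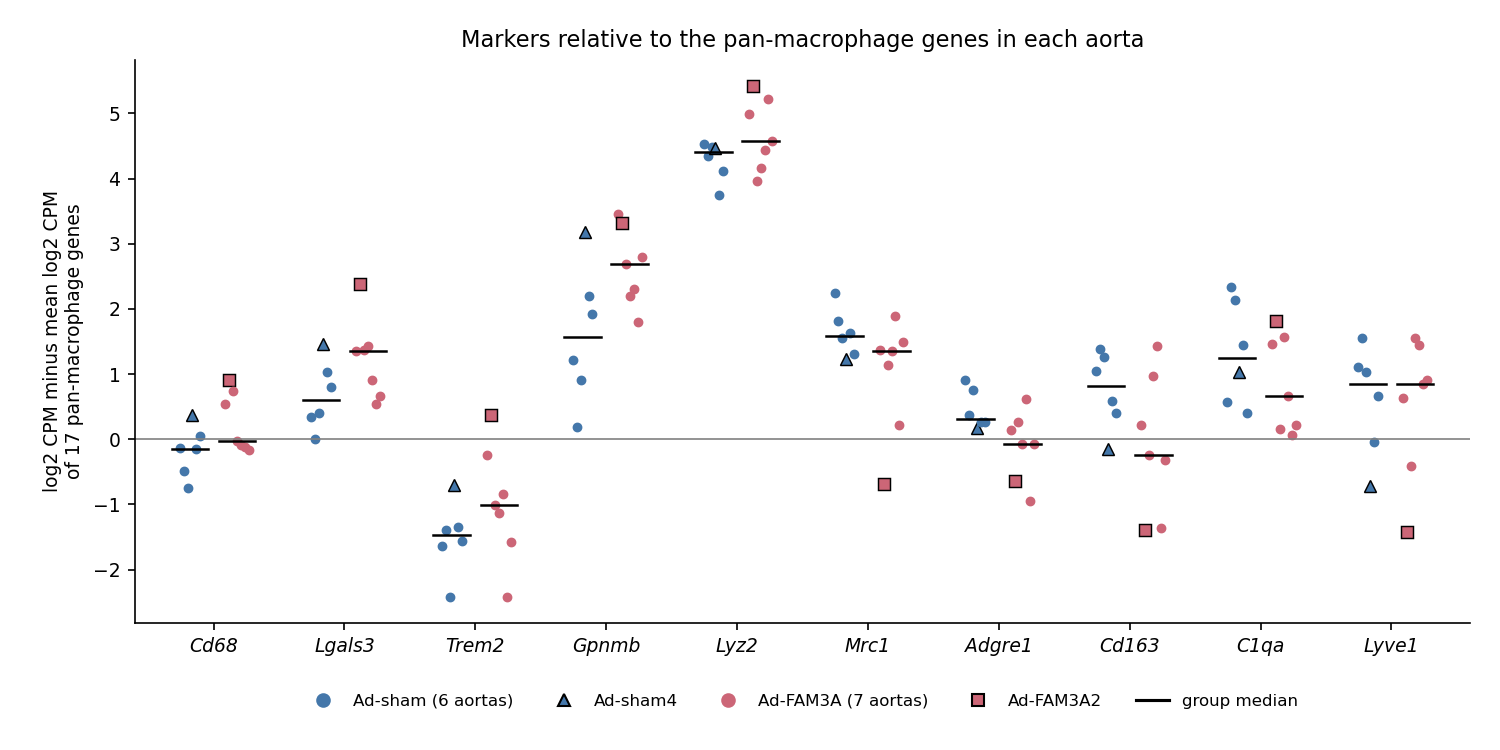
Log2 CPM of each marker minus the mean log2 CPM of 17 pan-macrophage genes in the same aorta, with 6 Ad-sham aortas in blue, 7 Ad-FAM3A aortas in red and black lines at the group medians. All 7 Ad-FAM3A aortas lie above the Ad-sham median for Gpnmb, 6 of 7 lie below it for Adgre1 and Mrc1, and Ad-FAM3A2 (square) is low for Mrc1, Cd163 and Lyve1.

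In wider gene lists 0 genes were called, and those past an unadjusted p under 0.05 in edgeR are to be read beside the 5.91% of all genes. Of the 17 pan-macrophage genes, 12 were higher and 5 lower in Ad-FAM3A with a median log2 fold change of 0.36, and 0 passed an unadjusted p under 0.05 by edgeR. Among them Csf1r was level (-0.01, standard error 0.26), and Mertk, a receptor for apoptotic cells, had 0.54 with a standard error of 0.27. Laptm5, a lysosomal protein of leukocytes, had 0.91 with a standard error of 0.45 and its highest value in Ad-FAM3A6.

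The list of 21 further foam cell genes held 16 with a higher and 5 with a lower value, with a median of 0.36. Soat1, which esterifies cholesterol for storage, was higher at an unadjusted p under 0.05 in edgeR (log2 fold change 0.67, standard error 0.31, exact permutation p = 0.0437). Plin2, a lipid droplet coat protein (-0.57, standard error 0.26, exact permutation p = 0.0851), and Cd36, a fatty acid and lipoprotein receptor (-0.49, standard error 0.21, exact permutation p = 0.0303), were lower at the same unadjusted threshold, and Lpl, the lipoprotein lipase, had -0.49 with a standard error of 0.24. Adipocytes also express Plin2, Cd36 and Lpl, and the 5 adipocyte genes were all lower, 3 of them at an unadjusted p under 0.05, with summed levels of 1415 to 4526 CPM in Ad-sham and 1033 to 2495 CPM in Ad-FAM3A. The part of adipose tissue in the values of these 3 genes was not tested. Spp1, which encodes osteopontin, had 0.79 with a standard error of 0.80, and Mmp12, the macrophage elastase, had 0.71 with a standard error of 0.71.

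In the list of 12 resident macrophage genes 11 were tested, 4 higher and 7 lower, with a median of -0.39. Timd4, a phosphatidylserine receptor, had a log2 fold change of 2.03 (standard error 0.84, edgeR p = 0.030) and its highest value in Ad-FAM3A6, and its exact permutation p was 0.372. F13a1 had -0.45, Folr2, a folate receptor, -0.61 and Cd209f, a lectin, -0.88, with standard errors of 0.28, 0.37 and 0.47.

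Of 12 inflammatory genes 11 were tested, 5 higher and 6 lower, with a median of -0.04. Only Ly6c2, a marker of inflammatory monocytes, passed an unadjusted p under 0.05 (2.15, standard error 0.79, exact permutation p = 0.280), again with its highest value in Ad-FAM3A6, and the cytokine gene Il1b had -0.30 with a standard error of 0.38. Among 5 tested genes of alternative activation, Mgl2, a galactose-binding lectin, was lower at an unadjusted p under 0.05 (-0.73, standard error 0.25, exact permutation p = 0.0262), while Retnla had -0.05 with a standard error of 0.35. Of 5 tested genes of growth factors and receptors of the lineage, 3 were higher and 2 lower and 0 passed, with Csf1 at 0.05 (standard error 0.18) and Il34 at -0.43 (standard error 0.25).

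Among 11 regulators, 4 were higher and 7 lower, with a median of -0.12. Tfec, a transcription factor of the lysosomal MiT family, was higher at an unadjusted p under 0.05 (0.86, standard error 0.38, exact permutation p = 0.0466), and Cebpa, which acts in both myeloid cells and adipocytes, was lower (-0.79, standard error 0.30, exact permutation p = 0.0186). Spi1, the gene of PU.1, had 0.31 with a standard error of 0.30, and the lipid-sensing receptor genes Nr1h3 and Pparg had -0.39 and -0.50 with standard errors of 0.24 and 0.29.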

How the data were processed

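RNA from 13 aortas (6 Ad-sham, 7 Ad-FAM3A) was sequenced. The authors aligned reads to GRCm38 with Hisat2 and deposited the FeatureCounts counts per gene, whole numbers without normalization. The annotation release, strand setting and handling of reads matching several genes were not given in the sources used here. The labels and the methods name different RNA and library kits, so the preparation is uncertain. Columns were mapped to aortas by their labels, with 0 columns left over. The deposited FPKM values are group means and were not used.

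Counts were normalized by TMM (edgeR 4.0.16, R 4.3.3), kept by filterByExpr and fitted with edgeR's quasi-likelihood model, and p-values of the 15811 genes were adjusted after Benjamini and Hochberg. A standard error is the size of the log2 fold change over the square root of F. CPM use the TMM-normalized totals. TPM were computed from the counts and the deposited gene length. An exact two-sided permutation test over the 1716 splits of the aortas was run for single genes on log2 CPM with a prior count of 2, which can reach p = 0.00058. The labels do not say how aortas relate beyond being separate samples, so p-values measure the spread between these aortas.

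Relations were computed as Pearson's r and Spearman's rho with 100000 resamples (within a group, all orders), and adjusted over 85 pairs. Libraries were checked for duplicates, and none agreed within sampling noise (smallest chi-square per degree of freedom 42.3). The edgeR step was tested on simulated data. DESeq2 1.42.0, limma-voom 3.58.1, other normalizations and filters, a replicate block and leaving out aortas were tried. Named genes are the markers, the genes of the hand-written lists, Fam3a, and for each marker the 3 protein-coding genes with the highest r, of which 1 is not reported here. Lyz1, named outside this rule, is given as the near-identical copy of Lyz2. Markers, lists and tests were chosen with earlier results of these data known. The length trend and the C1q ratios were added after the values were seen.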

Additional observations from a re-analysis of the deposited data

How the results depend on the processing

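The count of called genes was 0 in edgeR under each alternative and by limma-voom, and 10 by DESeq2, with 0 markers in every case. The unadjusted p under 0.05 count of markers was 0, and 1 by DESeq2 (Lyz2), by limma-voom (Cd163), with at least 10 counts in every aorta (Cd163) and with the replicate block (Cd163, unadjusted p = 0.0162, adjusted p = 0.978), and 0 to 5 when each aorta was left out. The count of genes at that threshold, 934, was 2269 with no filter on low counts, 1501 by DESeq2, 620 with the replicate block and 491 to 1345 without 1 aorta. The log2 fold changes of 8 markers kept their sign in each alternative run. C1qa (-0.06) was 0.13 without both Ad-FAM3A6 and Ad-FAM3A7 and -0.52 to 0.078 without 1 aorta, and Lyve1 was -0.069 without both. The replicate numbers did not pair the aortas: same-numbered deviations correlated at -0.33 to 0.45, and 1 of 6 was closest to its own number. With the replicate block 0 genes were called, and Gpnmb had 1.27, Mrc1 -0.57, Cd163 -0.62 and Lyve1 0.06.

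Relative to the pan-macrophage genes, Gpnmb was 1.37 against Csf1r alone and 0.77 to 1.37 without 1 aorta. Adgre1 was -0.24 against Csf1r alone, -0.39 without both Ad-FAM3A6 and Ad-FAM3A7 and -0.67 to -0.41 without 1 aorta. Cd68, Lgals3 and Trem2 were 0.60, 0.82 and 0.94 without both, and Lgals3 was 0.38 to 0.72, Mrc1 -0.82 to -0.39 and Cd163 -1.11 to -0.64 without 1 aorta. Lyve1 was 0.23 against Csf1r alone and -0.35 to 0.23 without 1 aorta. Pairs of markers past an adjusted p under 0.05, 12 in all, were 7 without the 2 farthest aortas and 0 within either group. The r of Cd68 with Mrc1 was -0.010 within Ad-FAM3A and with Cd163 0.18 within Ad-sham. With Csf1r, Lgals3 had -0.057 and Trem2 -0.16 within Ad-FAM3A. Without the 2 farthest aortas and within Ad-sham, C1qa had 0.0076 and 0.39, Cd163 0.19 and 0.40, and Lyve1 -0.13 and -0.54. The cause of these changes was not tested.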

Other observations

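The 3 chains of complement C1q, a protein complex that macrophages secrete, are encoded by neighbouring genes, but C1qa departed from the other chains in these libraries. C1qb and C1qc had r = 0.95 over the 13 aortas, C1qa and C1qc r = 0.78, and C1qa and C1qb r = 0.60, as a description chosen after the values were seen. The ratio of C1qa to C1qb in CPM ranged from 0.333 in Ad-FAM3A3 to 0.995 in Ad-sham2, a 2.99-fold span, while that of C1qc to C1qb ranged from 0.516 to 0.822. C1qa to C1qb was above 0.5 in 7 aortas, 4 Ad-sham and 3 Ad-FAM3A, and below it in 6, so the split did not follow the virus groups. The log2 of the ratio had r = -0.60 with the trend against gene length, whose part was not tested. Cd68 had r = 0.90 with C1qb, against 0.36 with C1qa. The fold changes were 0.23 for C1qb and 0.33 for C1qc on the log2 scale, with standard errors of 0.31 and 0.32, beside -0.06 for C1qa.

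Marco, a scavenger receptor of marginal zone and tissue macrophages that the filter on low counts left untested, had 0 to 1201 counts per aorta, with the highest value in Ad-FAM3A7, one of the pair of aortas with the most immunoglobulin. On the log2 scale no marker had a single aorta far from the others of its group by Dixon's criterion in the 20 groups of values checked, where chance alone would give 1. In CPM single aortas stood further out. Ad-FAM3A2 had 85.6 CPM of Trem2 and 233 CPM of C1qa, with the next Ad-FAM3A aortas at 29.6 and 96.1 CPM. For Gpnmb, Ad-sham4 had 574 CPM and the next Ad-sham aorta 194 CPM.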
